A study of Mus musculus with 9 samples.

Results

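The 35 genes described here are the liver's machinery for detecting microbes and the inflammatory pathway it feeds. They encode Toll-like and NOD-like receptors, the receptors' adaptors and kinases, and proteins that bind or cleave bacterial cell wall. The others encode NF-kB subunits with their inhibitors, the cytokines that follow, and the antimicrobial lectin Reg3g. All 35 were chosen by symbol, from a list of pathway genes, and were found among the 54393 gene identifiers of the deposited count table. Messenger RNA of mouse liver had been sequenced in 9 libraries, and the comparison asks how transcripts differ when the gut microbiota is depleted. The tested livers came from mice given antibiotics that stay in the gut (4 libraries, numbered 1, 2, 3 and 5), and the controls were conventional mice given none (5 libraries, numbered 1 to 5). All mice carried the strain label C56Bl/6j and ate the purified diet AIN-76a. The labels used here name neither the drugs nor the length of treatment, age or sex. They also do not tie each library to its own animal, so a p-value here speaks of the spread among libraries, which may be technical.

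Blood from the gut reaches the liver through the portal vein, and bacterial products carried in it meet sinusoidal endothelium, resident macrophages (Kupffer cells) and hepatocytes. Toll-like receptors at the surface or in endosomes recognise lipopeptides, lipopolysaccharide, flagellin or nucleic acids and signal through the adaptors MyD88 and TRIF (gene Ticam1) and IRAK kinases. The signal frees NF-kB from its inhibitor IκBα (gene Nfkbia), and NF-kB then induces cytokines, chemokines and its own inhibitors, so that Nfkbia and Tnfaip3 transcripts are used as readouts of the pathway.

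One control library, number 2, stood apart in its macrophage markers. Their sum reached 1091 CPM there (read counts scaled to depth), against 394 to 519 CPM in the other 8 libraries. The members' values without library 2 stand beside those with it near the end. Over the whole table control library 5 was most often the highest, for 20.1% of tested genes, against 10.5% for control library 2.

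Of the 35 genes, 28 had enough counts to be tested and 0 passed at an adjusted p under 0.05 by edgeR's quasi-likelihood test, where 398 of 14873 genes (2.68%) passed over the whole table. At an unadjusted p under 0.05 there were 4 of the 28 (14.3%), against 18.5% of all tested genes. These were the flagellin receptor Tlr5 and the double-stranded RNA receptor Tlr3, with positive fold changes, and the kinase Irak1 and the inhibitor Nfkbia, with negative ones. DESeq2 called 1 member, Tlr5 (6.56% of all genes were called by it), and limma-voom called 0 (413 of all 14873 genes were called by it). The median log2 fold change (antibiotics over control) of the tested members was -0.10, and that of all tested genes was -0.01. Of the 28 values 22 were below 0 (78.6%, against 51.4% of all tested genes), or 19 with upper-quartile scaling or limma-voom. The antibiotics and control libraries did not overlap in 4 members, Tlr3, Ticam1, Irak1 and Nfkb1 (14.3%, against 8.88% of all tested genes). A 95% interval for the fold change lay wholly within 1.5-fold in either direction for 13 of the 28 and within 2-fold for 23.

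**Figure D1:**
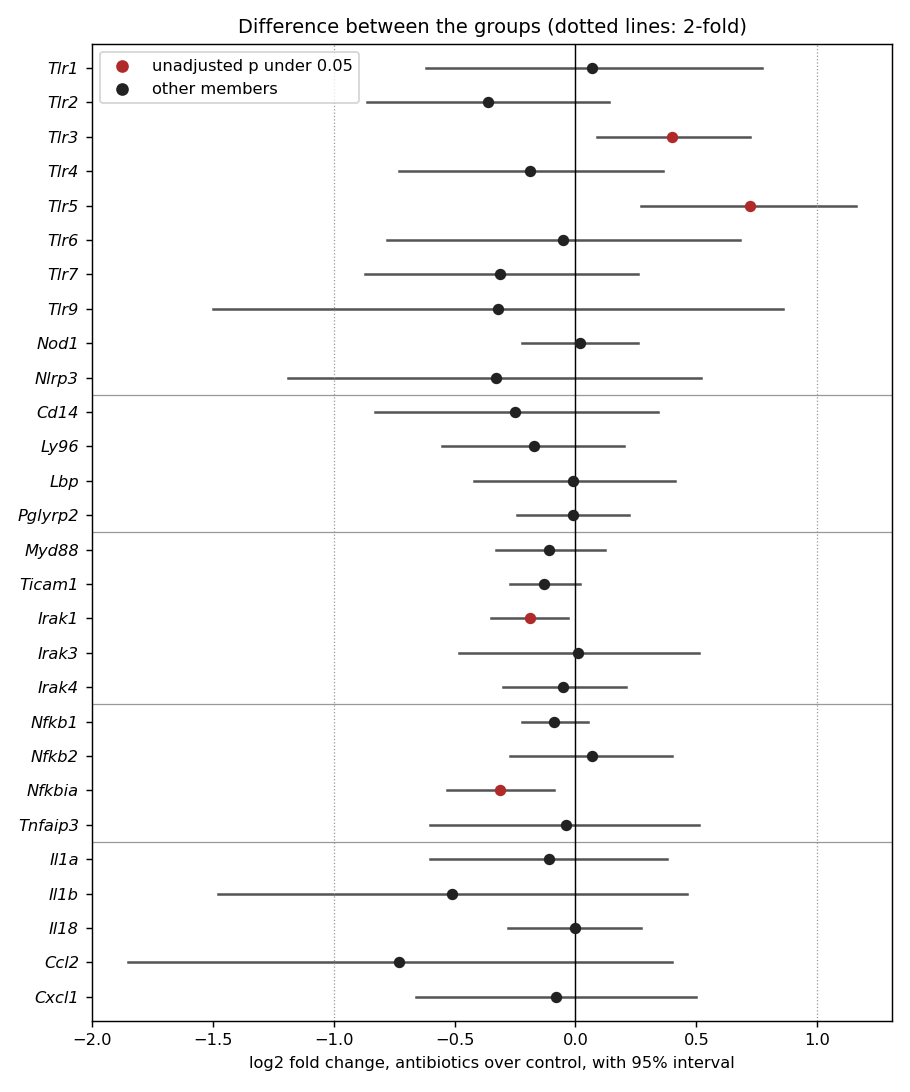
Log2 fold change of each tested member (antibiotics over control, points) with its 95% interval (bars) from edgeR, grouped by role from receptors at the top to cytokines at the bottom. Red points mark the 4 members with an unadjusted p under 0.05, and the 5 intervals that reach a 2-fold change (dotted lines) belong to Tlr5 and to Tlr9, Nlrp3, Il1b and Ccl2.

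The members differed widely in level. Levels between genes are compared here as normalised read counts (CPM, counts scaled to sequencing depth) divided by exon length in kilobases. On that scale the peptidoglycan amidase Pglyrp2 was highest at 35.5 CPM per kilobase, followed by the lipopolysaccharide-binding protein Lbp at 16.9, Irak1 at 15.9, Nfkbia at 14.3 and the cytokine gene Il18 at 9.77. The adaptors Ticam1 and Myd88 stood at 7.03 and 6.48. Every Toll-like receptor among the members was below 1.5 on this scale. Tlr5 at 1.3 and Tlr3 at 1.15 were the highest of them, and the lipopolysaccharide receptor Tlr4 stood at 0.232 and the CpG DNA receptor Tlr9 at 0.0825 CPM per kilobase. Of the untested genes, Tnf stood at 0.0847, Il6 at 0.00463 and Reg3g at 0.00327 CPM per kilobase.

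**Figure D2:**
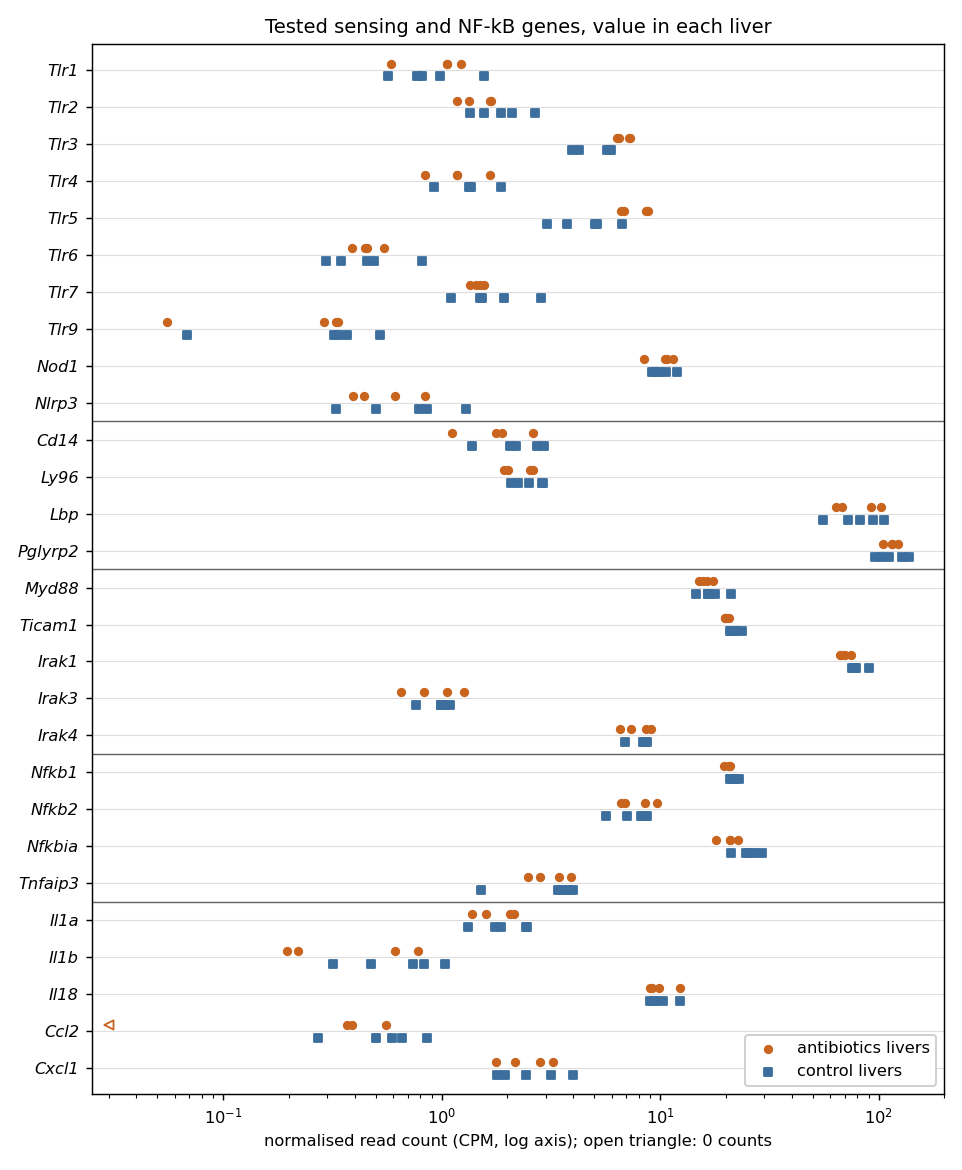
Normalised read count (CPM, log axis, not divided by length) of the 28 tested members in each library, antibiotics as circles above and controls as squares below, with horizontal lines between the role groups. Mean levels run from under 1 CPM for genes such as Tlr9, Tlr6, Il1b and Ccl2 to about 115 CPM for Pglyrp2. The groups overlap in all rows but Tlr3, Ticam1, Irak1 and Nfkb1. The open triangle is the antibiotics library with 0 counts of Ccl2.

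NF-kB binds a short DNA element, and the promoters of the members were searched for its consensus (GGG, a purine, any base, A or T, a pair of pyrimidines and CC, on both strands) in the 250 bases before each RefSeq start on GRCm38.p6. Promoters were found for 27 of the 35 members. The 8 without one, which were not searched, were Tlr4, Tlr7, Cd14, Ly96, Lbp, Nfkb1, Il10 and Ccl2. Of their 36 promoters 13 (36.1%), from 11 members, held at least 1 match, against 3.9% of all 32851 promoters of the table. The 3 shown are Nfkbia and Cxcl1, which were both measured in every library, and Il6, which was nearly undetected. Matches closer to the start than theirs lay in Nfkb2 (11 bases before it) and Tnfaip3 (12 bases before it), which are not shown. Capitals mark the consensus, and in Cxcl1 a match on each strand overlaps the other.
Nfkbia (chr12:55492648-55492897, minus strand): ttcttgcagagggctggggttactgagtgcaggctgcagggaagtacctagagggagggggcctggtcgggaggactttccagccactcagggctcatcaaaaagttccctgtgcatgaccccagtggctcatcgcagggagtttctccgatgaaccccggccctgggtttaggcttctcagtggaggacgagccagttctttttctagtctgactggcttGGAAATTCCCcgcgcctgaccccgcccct
Cxcl1 (chr5:90890995-90891244, plus strand): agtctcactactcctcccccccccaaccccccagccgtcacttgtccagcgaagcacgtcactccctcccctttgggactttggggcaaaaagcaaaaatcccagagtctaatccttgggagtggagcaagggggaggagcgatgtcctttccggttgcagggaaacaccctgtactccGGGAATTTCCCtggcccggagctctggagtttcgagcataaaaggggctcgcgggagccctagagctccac
Il6 (chr5:30012864-30013113, plus strand): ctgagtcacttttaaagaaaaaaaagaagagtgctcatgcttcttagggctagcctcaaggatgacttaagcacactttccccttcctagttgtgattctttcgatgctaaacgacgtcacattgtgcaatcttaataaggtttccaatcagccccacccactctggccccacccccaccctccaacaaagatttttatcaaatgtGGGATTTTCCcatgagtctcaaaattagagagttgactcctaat
The match begins 29 bases before the start in Nfkbia, 71 and 70 bases before it in Cxcl1, and 44 bases before it in Il6. The 7 tested members with a match (Tlr2, Tlr3, Nlrp3, Nfkb2, Nfkbia, Tnfaip3 and Cxcl1) had a median log2 fold change of -0.08, with a range of -0.36 to 0.40. Over the whole table, 566 tested genes had a match in a promoter, and 11 of them passed (1.94%, against 2.68% of all tested genes). A match describes letters only and does not show that the factor binds there.

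Among the Toll-like receptors, Tlr5, which recognises bacterial flagellin, came nearest to passing. Tlr5 (chromosome 1, 182954788 to 182976044, GRCm38) had 8.76, 6.86, 6.63 and 8.61 CPM in antibiotics libraries, against 3.75, 5.16, 5.03, 3.04 and 6.68 CPM in control libraries (antibiotics libraries in the order 1, 2, 3 and 5, control libraries 1 to 5, here and below). Antibiotics libraries 1 and 5 were the highest, and control library 5 lay just above the lowest antibiotics library, so the groups overlapped by that library alone. The means were 7.71 ± 1.13 CPM with antibiotics (SD, n = 4) and 4.73 ± 1.4 CPM in controls (SD, n = 5), a log2 fold change of 0.72 ± 0.20 (SE, edgeR adjusted p = 0.084). DESeq2 gave an adjusted p of 0.0233 and limma-voom 0.0531. Without control library 5 the edgeR log2 fold change was 0.87 with an adjusted p of 0.0351, and in the other 8 fits that left out 1 library the adjusted p ran up to 0.215.

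Tlr3, the endosomal receptor for double-stranded RNA (chromosome 8, 45395665 to 45411080), had 6.34, 6.47, 7.29 and 7.18 CPM in antibiotics libraries, against 4.27, 5.7, 5.95, 5.92 and 3.93 CPM in control libraries. All 4 antibiotics libraries lay above all 5 controls, and control libraries 1 and 5 were the lowest. The log2 fold change was 0.40 ± 0.14 (SE, edgeR adjusted p = 0.16), and the 95% interval ran from 0.09 to 0.72. Tlr3 overlaps the exons of the antisense gene Gm45542 on the opposite strand.

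The surface receptors for lipopeptides and lipopolysaccharide were low and did not pass. Tlr2, which recognises bacterial lipopeptides, had 1.18, 1.67, 1.33 and 1.69 CPM in antibiotics libraries, against 1.56, 2.68, 1.35, 1.86 and 2.09 CPM in control libraries. Its partners were lower, and Tlr1 averaged 0.981 ± 0.272 CPM with antibiotics (SD, n = 4) and 0.939 ± 0.377 CPM in controls (SD, n = 5). Tlr6 averaged 0.459 ± 0.0663 CPM with antibiotics (SD, n = 4) and 0.479 ± 0.202 CPM in controls (SD, n = 5). Tlr4, the lipopolysaccharide receptor, had 1.18, 0.836, 1.66 and 1.18 CPM in antibiotics libraries, against 1.36, 1.87, 1.35, 1.34 and 0.918 CPM in control libraries. For all 4 the groups overlapped, and control library 2 held the highest value of the 9. Their log2 fold changes were 0.07 ± 0.32 for Tlr1 (SE, edgeR adjusted p = 0.931), -0.36 ± 0.23 (SE, edgeR adjusted p = 0.435) for Tlr2, -0.19 ± 0.25 (SE, edgeR adjusted p = 0.738) for Tlr4 and -0.05 ± 0.33 (SE, edgeR adjusted p = 0.959) for Tlr6. Tlr7, the X-linked receptor for single-stranded RNA, had 1.5, 1.56, 1.44 and 1.35 CPM in antibiotics libraries, against 1.53, 2.85, 1.93, 1.5 and 1.1 CPM in control libraries. Control library 2 again stood above the other 8. Its log2 fold change was -0.31 ± 0.26 (SE, edgeR adjusted p = 0.573). Tlr9, the receptor for unmethylated CpG DNA, had 1 to 25 counts per library, and its 95% interval of -1.50 to 0.86 on the log2 scale allows more than a 2-fold difference.

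Nod1, the cytosolic sensor of a peptidoglycan fragment found mainly in Gram-negative bacteria, had the smallest standard error of the receptors. Nod1 (chromosome 6, 54923949 to 54972612) had 10.5, 8.47, 10.8 and 11.4 CPM in antibiotics libraries, against 9.43, 11.9, 9.9, 9.21 and 10.6 CPM in control libraries. The groups overlapped throughout, and the log2 fold change was 0.02 ± 0.11 (SE, edgeR adjusted p = 0.948) with a 95% interval of -0.22 to 0.26. Nod2, the sensor of muramyl dipeptide, had 3, 2, 8 and 17 counts in antibiotics libraries and 6, 17, 8, 15 and 5 in control libraries, too few to be tested. Nlrp3, the scaffold of an inflammasome, averaged 0.571 ± 0.201 CPM with antibiotics (SD, n = 4) and 0.753 ± 0.368 CPM in controls (SD, n = 5), with a log2 fold change of -0.33 ± 0.39 (SE, edgeR adjusted p = 0.699). Bulk tissue cannot tell fewer cells of a type from less RNA per cell, and that holds for every receptor that macrophages carry.

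**Figure D3:**
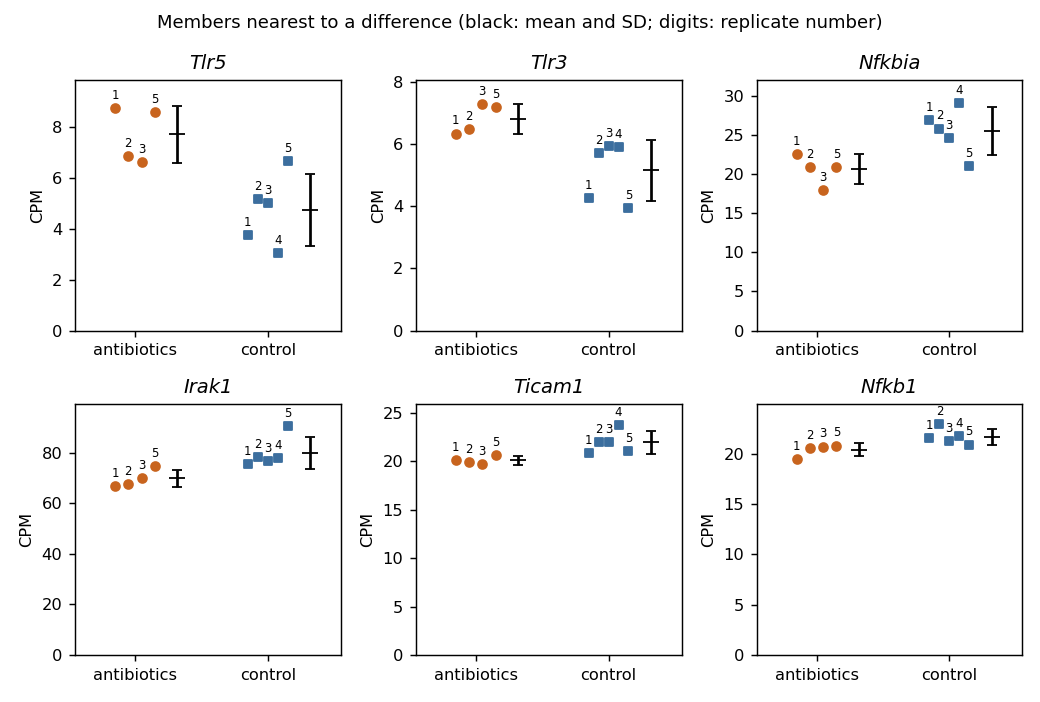
Normalised read count (CPM, axes from 0) in each library for the 4 members with an unadjusted p under 0.05 and the 2 further members whose groups did not overlap; antibiotics libraries as circles on the left, controls as squares on the right, with replicate numbers and the mean and SD in black. Antibiotics libraries lie mostly above controls for Tlr5 and Tlr3 and below them for the other 4, by small margins: Ticam1 spans 19.7 to 20.7 CPM with antibiotics and 20.9 to 23.8 CPM in controls.

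The 2 secreted proteins that handle bacterial cell wall, Lbp and Pglyrp2, had group means that differed by far less than their spread. Lbp, which is secreted by hepatocytes and carries lipopolysaccharide to CD14 (chromosome 2, 158306493 to 158332852), had 63.5, 68.1, 102 and 92.1 CPM in antibiotics libraries, against 55.5, 93.8, 81.8, 72 and 106 CPM in control libraries. Control library 1 was the lowest and control library 5 the highest, on both sides of all 4 antibiotics libraries, and the group means were 81.4 ± 18.6 CPM with antibiotics (SD, n = 4) and 81.8 ± 19.6 CPM in controls (SD, n = 5). Its log2 fold change was -0.01 ± 0.19 (SE, edgeR adjusted p = 0.993), with a 95% interval of -0.42 to 0.41. Pglyrp2, the secreted amidase that cleaves peptidoglycan (chromosome 17, 32412459 to 32424167), had 115, 123, 105 and 115 CPM in antibiotics libraries, against 104, 128, 95.9, 111 and 138 CPM in control libraries. Control libraries 5 and 2 were highest and control library 3 lowest, on both sides of all 4 antibiotics libraries. The log2 fold change was -0.01 ± 0.11 (SE, edgeR adjusted p = 0.972), and the interval of -0.24 to 0.22 leaves out a change of 1.2-fold in either direction.

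The lipopolysaccharide co-receptor Cd14 had 1.11, 1.78, 1.88 and 2.61 CPM in antibiotics libraries, against 1.38, 2.95, 2.05, 2.72 and 2.2 CPM in control libraries. Ly96, which encodes the MD-2 subunit that binds lipopolysaccharide beside TLR4, had 2.61, 2.01, 2.54 and 1.92 CPM in antibiotics libraries, against 2.07, 2.89, 2.51, 2.9 and 2.24 CPM in control libraries. Both overlapped between the groups. The log2 fold changes were -0.25 ± 0.27 (SE, edgeR adjusted p = 0.669) for Cd14 and -0.17 ± 0.17 (SE, edgeR adjusted p = 0.633) for Ly96. Pglyrp1, a peptidoglycan-binding protein of neutrophil granules, had 0 to 7 counts per library and was not tested.

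None of the 5 adaptors and kinases passed, and their log2 fold changes lay between -0.19 and 0.01. Myd88, the adaptor shared by most Toll-like receptors, had 17.4, 15.7, 15 and 16.3 CPM in antibiotics libraries, against 16.6, 17.8, 14.6, 16.6 and 21 CPM in control libraries. Ticam1, the adaptor of Tlr3 and of endosomal Tlr4, had 20.1, 19.9, 19.7 and 20.7 CPM in antibiotics libraries, against 20.9, 22, 22, 23.8 and 21.1 CPM in control libraries. Myd88 overlapped between the groups and Ticam1 did not, each antibiotics library lying below each control. The log2 fold changes were -0.11 ± 0.10 (SE, edgeR adjusted p = 0.627) for Myd88 and -0.13 ± 0.07 (SE, edgeR adjusted p = 0.327) for Ticam1, with unadjusted p of 0.323 and 0.0755.

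Irak1, the kinase recruited through MyD88 (chromosome X, 74013914 to 74023918), had 66.8, 67.7, 70 and 74.6 CPM in antibiotics libraries, against 75.3, 78.4, 76.7, 78 and 90.6 CPM in control libraries. Every antibiotics library lay below every control, with a gap of under 1 CPM between antibiotics library 5 and control library 1, and control library 5 was the highest of all. The log2 fold change was -0.19 ± 0.07 (SE, edgeR adjusted p = 0.184) with an unadjusted p of 0.0214, and the unadjusted p was 0.0613 and 0.0566 without antibiotics libraries 1 and 2. Irak4, the kinase that acts before Irak1, had 7.32, 9.09, 6.58 and 8.58 CPM in antibiotics libraries, against 8.39, 8.73, 6.9, 8.53 and 8.37 CPM in control libraries. Irak4 overlapped fully, with a log2 fold change of -0.05 ± 0.12 (SE, edgeR adjusted p = 0.867). Irak3, a brake on Toll-like receptor signalling in macrophages, averaged 0.949 ± 0.263 CPM with antibiotics (SD, n = 4) and 0.971 ± 0.121 CPM in controls (SD, n = 5), and its log2 fold change was 0.01 ± 0.23 (SE, edgeR adjusted p = 0.985).

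Among NF-kB genes, Nfkbia, which encodes the inhibitor IκBα and is induced by NF-kB, had the largest fold change. Nfkbia (chromosome 12, 55489410 to 55492647) had 22.6, 20.9, 18 and 20.9 CPM in antibiotics libraries, against 26.9, 25.8, 24.6, 29.1 and 21 CPM in control libraries. Control library 5 lay among the antibiotics libraries, and the other 4 controls were above all of them. The means were 20.6 ± 1.93 CPM with antibiotics (SD, n = 4) and 25.5 ± 2.99 CPM in controls (SD, n = 5), a log2 fold change of -0.31 ± 0.10 (SE, edgeR adjusted p = 0.131), and the unadjusted p was 0.0104. Without control library 5 it was -0.37 with an adjusted p of 0.0478, and in the other 8 fits that left out 1 library the adjusted p ran up to 0.297. DESeq2 gave an adjusted p of 0.0711.

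Tnfaip3, the other inducible inhibitor, which encodes the deubiquitinase A20, had 2.81, 3.9, 2.49 and 3.46 CPM in antibiotics libraries, against 3.97, 3.83, 3.4, 3.56 and 1.51 CPM in control libraries. Control library 5 was the lowest of the 9 and the other controls lay within the antibiotics range or just above it. Its log2 fold change was -0.04 ± 0.25 (SE, edgeR adjusted p = 0.953), with a 95% interval of -0.60 to 0.51. Nfkb1, which encodes the p105 precursor of p50, had 19.5, 20.6, 20.7 and 20.8 CPM in antibiotics libraries, against 21.5, 22.9, 21.2, 21.7 and 20.9 CPM in control libraries. The groups did not overlap, though antibiotics library 5 and control library 5 lay next to each other at 20.8 and 20.9 CPM, and the log2 fold change was -0.09 ± 0.06 (SE, edgeR adjusted p = 0.498). Nfkb2, the precursor of p52 in the noncanonical pathway, had 6.6, 9.7, 6.91 and 8.49 CPM in antibiotics libraries, against 7.06, 8.13, 5.64, 8.73 and 8.41 CPM in control libraries. Its groups overlapped throughout, with a log2 fold change of 0.07 ± 0.15 (SE, edgeR adjusted p = 0.86).

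Among the cytokines Il18 was highest, Cxcl1 and Il1a were lower, and several were near or at the limit of detection. Il18, which is made as a precursor and cut by inflammasome caspases, had 9.15, 9.92, 12.3 and 8.98 CPM in antibiotics libraries, against 9.48, 12.3, 9.29, 8.94 and 10.3 CPM in control libraries. The groups overlapped throughout, with a log2 fold change of 0.00 ± 0.12 (SE, edgeR adjusted p = 0.995) and a 95% interval of -0.28 to 0.27. Cxcl1, a neutrophil chemokine, had 2.16, 3.23, 1.77 and 2.83 CPM in antibiotics libraries, against 4, 1.79, 3.16, 2.43 and 1.95 CPM in control libraries. Il1a, an alarmin released by damaged cells, had 1.37, 2.06, 1.6 and 2.14 CPM in antibiotics libraries, against 2.47, 1.87, 2.42, 1.32 and 1.76 CPM in control libraries. Both overlapped between the groups, and the log2 fold changes were -0.08 ± 0.26 (SE, edgeR adjusted p = 0.909) for Cxcl1 and -0.11 ± 0.22 (SE, edgeR adjusted p = 0.844) for Il1a.

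Il1b, the inflammasome-processed cytokine, had 0.196, 0.78, 0.221 and 0.612 CPM in antibiotics libraries, against 0.741, 1.04, 0.828, 0.318 and 0.477 CPM in control libraries. Antibiotics libraries 1 and 3 were the lowest of the 9, and libraries 2 and 5 lay among the controls. The monocyte chemokine Ccl2 had 0, 0.557, 0.387 and 0.37 CPM in antibiotics libraries, against 0.272, 0.499, 0.859, 0.59 and 0.661 CPM in control libraries. Antibiotics library 1, the shallowest of all, held 0 counts of Ccl2, which at its depth allows up to 0.196 CPM (3 counts). The log2 fold changes were -0.51 ± 0.44 (SE, edgeR adjusted p = 0.581) for Il1b and -0.73 ± 0.51 (SE, edgeR adjusted p = 0.487) for Ccl2, with 95% intervals of -1.48 to 0.46 and -1.85 to 0.40. These intervals are wide enough to hold more than a 2-fold decrease as well as no change.

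Tnf had 2, 1, 1 and 7 counts in antibiotics libraries and 2, 17, 7, 8 and 4 in control libraries. Il10 had 0, 1, 2 and 3 counts in antibiotics libraries and 0, 7, 2, 0 and 0 in control libraries. Cxcl2 had 0, 2, 0 and 9 counts in antibiotics libraries and 4, 7, 5, 6 and 1 in control libraries. None of these cytokine genes reached the filter on low counts. Il6 had 0 counts in 6 of the 9 libraries and 1 count in each of the others. Reg3g, an antimicrobial lectin that the gut epithelium makes in response to bacteria, had 1 count in antibiotics library 3 and 0 in the other 8. With 3 counts as the limit that a count of 0 allows, Reg3g could be up to 0.0483 CPM in the deepest library and 0.196 CPM in the shallowest. When all genes with a count were tested, the 7 untested members had edgeR adjusted p of 0.528 for Tnf and at least 0.561 for the other 6.

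With edgeR 1 other gene of the pathway was called, where 2.68% of all tested genes passed. Of 82 further sensors, signalling proteins and cytokine receptors, 73 were tested and 0 rose and 1 fell (edgeR, 14 at an unadjusted p under 0.05, 3 called by DESeq2 and 1 by limma-voom), with a median log2 fold change of -0.08, and 1.05% of all tested genes fell. The share at an unadjusted p under 0.05 was 19.2%, against 18.5% of all tested genes, and the DESeq2 share 4.11%, against 6.56%. Of the 73 values 46 were below 0 (63%, against 51.4% of all). Control library 2 was the highest library for 26 of the 73 (35.6%, against 10.5% of all). Without it, 70 were tested and 1 still passed with edgeR. The median was then 0.01, and 34 values were below 0 (48.6%, against 50% of all). The 1 call was Tab2, a ubiquitin-binding adaptor that couples TRAF6 to the kinase TAK1. Tab2 (chromosome 10, 7905653 to 7956230) had 43.5, 44.5, 48.4 and 41.6 CPM in antibiotics libraries, against 55.6, 58, 57.9, 61.5 and 59 CPM in control libraries. The groups did not overlap, and the log2 fold change was -0.39 ± 0.07 (SE, edgeR adjusted p = 0.0169). The adjusted p was 0.067 and 0.0575 without antibiotics libraries 1 and 5, and 0.0576 with a replicate block.

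The 4 genes of that list with the next smallest p were the signalling adaptor Traf3, the MyD88-bridging adaptor Tirap, the kinase Irak2 and the NOD-signalling kinase Ripk2. Their log2 fold changes were -0.41 ± 0.11 (SE, edgeR adjusted p = 0.0721), -0.29 ± 0.09 (SE, edgeR adjusted p = 0.0969), -0.30 ± 0.09 (SE, edgeR adjusted p = 0.104) and 0.29 ± 0.09 (SE, edgeR adjusted p = 0.137). DESeq2 called Traf3 and Tirap (adjusted p = 0.0248 and 0.0428). Exons of Tirap and Irak2 overlap genes on the opposite strand. Of 40 genes known as NF-kB targets, 4 (Relb, Nfkbie, Birc3 and Traf1) were also in that list, and 1, Nfkb2, was a member. From the 40, 26 were tested and 0 passed with edgeR (3 at an unadjusted p under 0.05, 1 called by DESeq2 and 0 by limma-voom). The unadjusted share was 11.5%, against 18.5% of all tested genes, and the DESeq2 share 3.85%, against 6.56%. Their median log2 fold change was -0.27 (-0.01 over all tested genes), and 21 of 26 values were below 0 (80.8%, against 51.4% of all). Control library 2, rich in macrophage transcripts, was the highest of the 9 for 7 of the 26 targets (26.9%, against 10.5% of all tested genes), among them Cxcl10 and Bcl2a1b. Without it, 25 targets were tested, 0 passed with edgeR, the median was -0.13 and 17 values were below 0 (68%, against 50% of all). The smallest p belonged to the survival gene Bcl2a1b at -1.25 ± 0.33 (SE, edgeR adjusted p = 0.0669), which has near-identical copies in the mouse genome, so its counts are uncertain. The adhesion molecule Icam1 followed at -0.52 ± 0.18 (SE, edgeR adjusted p = 0.149), the survival gene Bcl2l1 at -0.23 ± 0.09 (SE, edgeR adjusted p = 0.199) and the interferon-inducible chemokine Cxcl10 at -0.58 ± 0.28 (SE, edgeR adjusted p = 0.308). Exons of Icam1 and Cxcl10 also overlap genes on the opposite strand.

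Control library 2 held the most macrophage transcripts. The summed level of 16 Kupffer cell and macrophage markers was 429, 456, 501 and 510 CPM in antibiotics libraries, against 504, 1091, 519, 394 and 462 CPM in control libraries. Control library 2 was the highest of the 9 for all 16 markers, which include the Kupffer cell genes Clec4f, Vsig4 and Timd4 and the receptor Csf1r. It was also the highest library for 12 of the 28 tested members (42.9%), against 10.5% of all tested genes. These were Tlr1, Tlr2, Tlr4, Tlr6, Tlr7, Tlr9, Nod1, Nlrp3, Cd14, Nfkb1, Il1b and Il18. The mean of the macrophage sum was 474 ± 38.2 CPM with antibiotics (SD, n = 4) and 594 ± 282 CPM in controls (SD, n = 5), or 470 CPM in controls without library 2.

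Without control library 2, 27 members were tested and 0 passed with edgeR. An unadjusted p under 0.05 was found for 4 of the 27, and for 16.3% of all tested genes. The members' median log2 fold change was -0.04, and 16 values were below 0 (59.3%, against 50% of all). Over all genes, 165 then passed, against 398 with all 9 libraries. The log2 fold change without that library was -0.03 for Nlrp3 (-0.33 with all libraries), -0.06 for Tlr7 (-0.31 with all) and -0.04 for Tlr4 (-0.19 with all). It was -0.19 for Tlr2 (-0.36 with all), -0.12 for Cd14 (-0.25 with all) and -0.28 for Il1b (-0.51 with all). It was 0.36 for Tlr1 (0.07 with all), 0.25 for Tlr6 (-0.05 with all), 0.09 for Nod1 (0.02 with all), 0.09 for Il18 (0.00 with all) and -0.06 for Nfkb1 (-0.09 with all), and Tlr9 no longer had enough counts to be tested. These members were the ones highest in control library 2, so leaving it out was bound to raise their values. None passed with or without it. Tlr1, Tlr2, Tlr6 and Tlr7 moved furthest when control library 2 was left out. Some others moved at least as far without another library, among them Cd14 (-0.50) and Nlrp3 (-0.65) without antibiotics library 5. The part of the macrophage transcripts in the receptors' values was not tested. Among the other cell types, lymphocyte markers summed to 5.3 to 6.02 CPM with antibiotics and to 4.18 to 11.1 CPM in controls, again highest in control library 2. Monocyte and neutrophil markers (14 genes) summed to 9.02 to 14.2 CPM with antibiotics and 9.41 to 16.7 CPM in controls, and sinusoidal endothelial markers (10 genes) to 302 to 310 CPM with antibiotics and 285 to 365 CPM in controls. Stellate cell markers summed to 193 to 214 CPM with antibiotics and 200 to 248 CPM in controls, and bile duct markers to 34.2 to 68 CPM with antibiotics and 34.7 to 94.3 CPM in controls. Of 19 pancreas and gut markers 8 had 0 counts everywhere, among them Ctrb1, Prss2, Pnlip and Reg3a, and nearly all of the list's sum of 72.3 to 104 CPM with antibiotics and 65.9 to 82.1 CPM in controls came from Fabp2 (61 to 85.8 CPM with antibiotics and 49.6 to 66.6 CPM in controls) and Cela1 (10.1 to 20.9 CPM with antibiotics and 9.89 to 15 CPM in controls), the other 17 being below 1 CPM in every library. The 12 hepatocyte markers such as Alb, Ttr and Apoa1 summed to 114746 to 124570 CPM with antibiotics and 117164 to 129655 CPM in controls. As a measure of RNA quality, the 13 mRNAs of the mitochondrial genome summed to 49480 to 73733 CPM with antibiotics and 44895 to 65301 CPM in controls, with means of 64964 ± 11141 CPM with antibiotics (SD, n = 4) and 53213 ± 7635 CPM in controls (SD, n = 5). All 13 had positive log2 fold changes (median 0.32), 4 of them at an unadjusted p under 0.05 (30.8%, against 18.5% of all tested genes), and 0 passed with edgeR, DESeq2 or limma-voom. The part of this difference in the members' values was not tested.

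**Figure D4:**
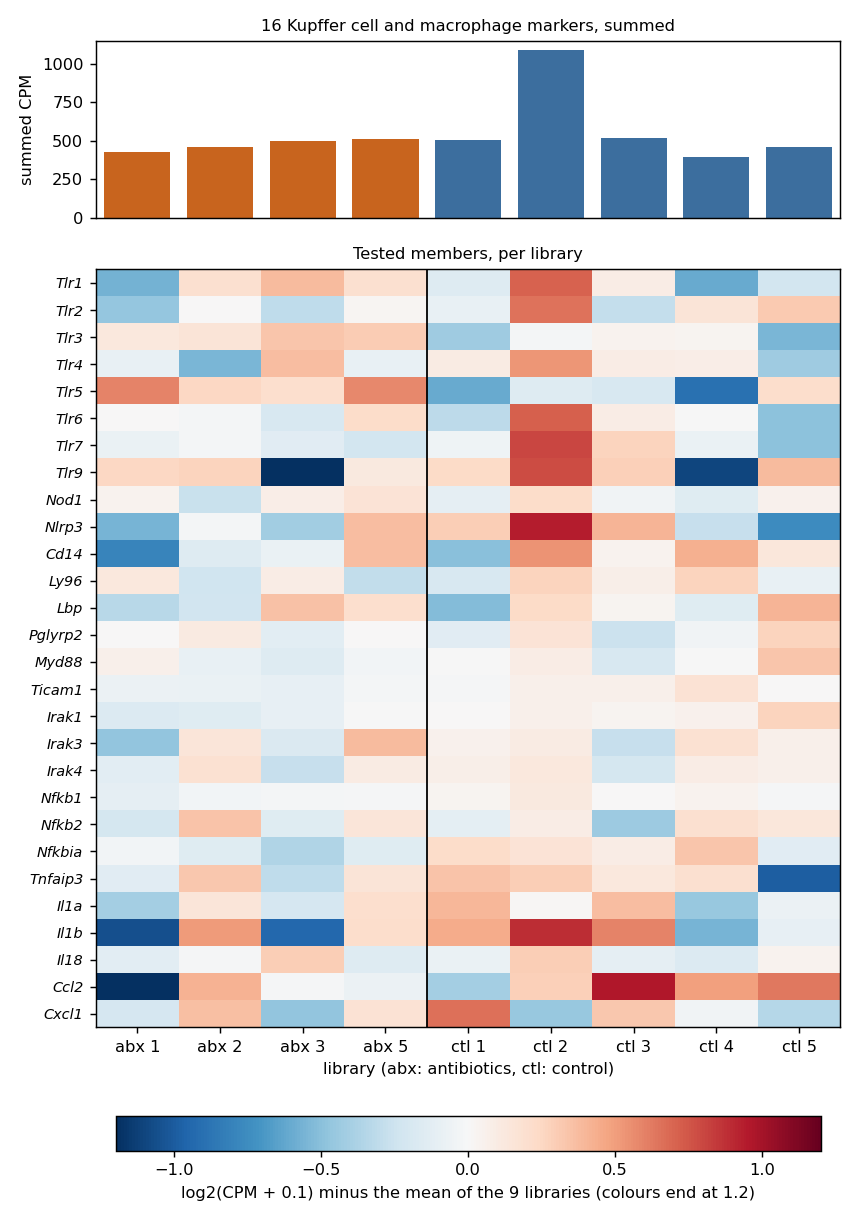
Top, summed CPM of the 16 Kupffer cell and macrophage markers in each library (bars from 0). Bottom, each tested member in each library as log2(CPM + 0.1) minus its mean over the 9 libraries (red high, blue low, colours end at 1.2), antibiotics left of the line and controls right of it. Control library 2 reaches 1091 CPM in the bars and is red for most Toll-like receptors, Nlrp3, Cd14 and Il1b.

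Depth and annotation limit these values. The antibiotics libraries held 15422891, 18001886, 18504624 and 59179622 estimated counts and the control libraries 41047847, 49628737, 32495190, 41796911 and 28156248, so low members such as Tlr9, Il1b and Ccl2 rest on few counts in antibiotics libraries 1 to 3. Exons of 8 members (Tlr3, Pglyrp2, Myd88, Irak3, Irak4, Nfkb2, Il1a and Il1b) overlap a gene on the opposite strand, in Myd88 the liver-expressed thiolase gene Acaa1a over 290 bases, and no source used here says whether the counting used the strand.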

How the data were processed

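RNA from mouse liver had been sequenced with a stranded mRNA kit, per the labels' protocols. Estimated counts were deposited by the authors as a single table of whole numbers, and the submitters' processing notes name Salmon and GRCm38. No source used here gives Salmon's version, the annotation or the rounding step. All 54393 identifiers occur in GENCODE M21, which supplied symbols, positions and exon lengths. The older symbols Mb21d1 and Tf were read as Cgas and Trf.

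Genes were kept by filterByExpr (minimum count 10, minimum total 15), which left 14873, scaled by TMM and tested in R 4.3.3 with edgeR 4.0.16 (quasi-likelihood F test, group as the only term, Benjamini-Hochberg adjustment over all tested genes, threshold 0.05). The SE is the log2 fold change divided by the square root of F, and 95% intervals use its t quantile. CPM are on TMM-scaled libraries, and their SDs are over the libraries of a group. The test was run on simulated counts first. Other settings tried were DESeq2 1.42.0, limma-voom (limma 3.58.1), upper-quartile or RLE factors, a mean of at least 1 CPM or no filter, a replicate block, thinning to 15422891 counts and omission of each library. Transcripts of the 35 members were searched for close copies with BLAST+ 2.17.0 (95% identity over 200 nt), which found only overlapping genes, at 4 members. No 2 libraries of a group agreed within sampling noise (lowest chi-square per degree of freedom 20.2). Promoter sequences are RefSeq's, on GRCm38.p6. Floors cover counting error only.

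All members are named. Those with a mean of at least 1 CPM have their value in every library, and from each further list the passing genes and up to 4 more with the smallest p are named. The members, lists and tests were chosen with earlier results of these data known.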

Additional observations from a re-analysis of the deposited data

Results flagged for a closer look

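In 7 of 74 groups of values (28 tested members and 9 marker lists, in each group), 1 library lay far from the rest of its group, where chance gives about 5%. Among antibiotics libraries, library 3 was low for Tlr9 at 0.0553 CPM, which is 1 count, and library 1 was low for Nfkb1 at 19.5 CPM against 20.6 to 20.8 CPM in the other 3. Among controls, library 5 was high for Irak1 at 90.6 CPM and low for Tnfaip3 at 1.51 CPM, and library 3 was low for Irak4 at 6.9 CPM. Control library 2 was high for the summed Kupffer cell and macrophage markers at 1091 CPM and for the summed lymphocyte markers at 11.1 CPM.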

How the results depend on the processing

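The count of members that passed was 0 in edgeR and stayed 0 under RLE or upper-quartile factors, limma-voom, both other filters, the replicate block and thinning, while DESeq2 called 1 member as higher (Tlr5, log2 fold change 0.71, adjusted p = 0.0233). With 1 library left out, 0 to 1 members passed as higher and 0 to 1 as lower, and the calls, Tlr5 (0.87) and Nfkbia (-0.37), came without control library 5 only. All genes past the threshold numbered 398, with 975 by DESeq2, 179 with the replicate block and 36 to 455 with 1 library left out. Other pathway genes past it numbered 1, with 4 by DESeq2, 0 with the replicate block and 0 to 1 with 1 library left out. Tab2 kept its sign throughout and had adjusted p above 0.05 with the replicate block (log2 fold change -0.37) and without antibiotics libraries 1 (-0.38) and 5 (-0.36). Libraries that shared a replicate number were little alike over all tested genes. Their deviations from the group means correlated at 0, -0.06, 0.03 and 0.1 for numbers 1, 2, 3 and 5. Numbers 3 and 5 correlated best with their own number, and whether the numbers stand for pairs was not tested further.

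Signs changed for 11 members, whose log2 fold changes were at most 0.08 in size, and the cause was not tested. With 1 library left out, the log2 fold change ran from -0.07 to 0.36 for Tlr1, -0.18 to 0.25 for Tlr6, -0.04 to 0.10 for Nod1, -0.13 to 0.11 for Lbp and -0.07 to 0.06 for Pglyrp2. It ran from -0.19 to 0.14 for Irak3, -0.12 to 0.03 for Irak4, -0.04 to 0.14 for Nfkb2, -0.21 to 0.05 for Tnfaip3, -0.21 to 0.12 for Cxcl1 and -0.11 to 0.09 for Il18, whose value with all libraries was just below 0. With the replicate block, Tlr1 was at -0.04, Tlr6 at 0.02, Nod1 at -0.02 and Tnfaip3 at 0.07. With limma-voom, Tlr6 was at 0.06 and Cxcl1 at 0.01. Lbp and Il18 were both at 0.01 with upper-quartile factors and with thinning, and Nfkb2 at -0.02 with thinning.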

Other observations

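Some inflammatory genes varied widely within both groups, and they are named here after their values were seen. Lcn2, an iron-sequestering acute phase protein, had 3.59, 5.97, 40.6 and 37.7 CPM in antibiotics libraries, against 2.52, 12.3, 74.7, 5.85 and 55.7 CPM in control libraries. Saa3, an acute phase apolipoprotein, had 2.42, 3.57, 9.23 and 9.82 CPM in antibiotics libraries, against 3.18, 8.77, 27.3, 3.58 and 15.4 CPM in control libraries. For both genes antibiotics libraries 3 and 5 and control libraries 3 and 5 were the 4 highest. Their log2 fold changes were -0.42 ± 0.92 (SE, edgeR adjusted p = 0.853) and -0.83 ± 0.62 (SE, edgeR adjusted p = 0.515). Marco, a scavenger receptor of macrophages, had 1.7, 2.01, 2.76 and 10.7 CPM in antibiotics libraries, against 2.62, 32, 10.8, 2.36 and 10.1 CPM in control libraries.

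Control library 2 was also the highest of the 9 for Irf7, Il18bp, Zbp1 and Ccl5, likewise named after their values were seen. Irf7, a transcription factor of the interferon response, had 35.4, 34.6, 35.8 and 36.8 CPM in antibiotics libraries, against 30.9, 66.3, 33.2, 32 and 34.1 CPM in control libraries. Il18bp, the secreted antagonist of interleukin 18, had 8.1, 9.59, 9.45 and 9.58 CPM in antibiotics libraries, against 9.26, 24, 11.2, 8.55 and 9.91 CPM in control libraries. The nucleic acid sensor Zbp1 had 3.72, 2.68, 4.64 and 5.15 CPM in antibiotics libraries, against 2.3, 10.6, 3.37, 2.93 and 4.37 CPM in control libraries. The chemokine gene Ccl5 had 0.784, 0.669, 0.442 and 0.435 CPM in antibiotics libraries, against 0.346, 3.24, 0.429, 0.227 and 0.514 CPM in control libraries. In each of these 4 genes the other 8 libraries lay well below control library 2.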
